A study of Rattus norvegicus with 20 samples.

Results

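Interleukins are secreted cytokines through which leukocytes, stromal cells and other cells signal to each other, and each acts through a receptor built of subunits that are often shared between family members. In adipose tissue they are known for their part in the inflammation that accompanies obesity. The IL-1 family is checked by a receptor antagonist, binding proteins and decoy receptors, while the common gamma chain, IL-6, IL-10 and IL-12 families signal mainly through JAK kinases and STAT factors.

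The genes described here are the 80 of 32545 genes in a count table of inguinal white adipose tissue (iWAT, a subcutaneous fat depot) whose symbol starts with Il and a digit, which takes in ligands, receptors, antagonists and a few genes named for another reason. RNA was sequenced from 20 male ZSF1 rats (ZSF1-Lepr fa Lepr cp/Crl), 5 in each of 4 groups. ZSF1 obese rats inherit a leptin receptor mutation from each parent strain and overeat, whereas lean ZSF1 rats do not carry a mutation on both copies and served as controls. All rats ate the high carbohydrate chow Purina 5008 and entered the 10-week study at 21 to 22 weeks of age. The Cmpd 1 group was of obese rats given a PKCα/β inhibitor in the chow at about 50 mg per kg per day, and the Food matched group was of obese rats without drug whose food was set to what the Cmpd 1 group had eaten the week before. The Obese group was of untreated obese rats and the Lean group of untreated lean rats. GEO labels the Food matched phenotype as lean while the sample titles say obese, and the titles were followed. RNA came from whole tissue, so fewer cells of a type and less RNA per cell cannot be told apart.

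Between 31716457 and 65759306 reads were counted per library in the Cmpd 1 group, 54649679 to 74784655 in the Food matched, 56743417 to 70206686 in the Obese and 50604956 to 68048796 in the Lean group. Of the 80 interleukin genes, 58 passed the filter on low counts, 17 had reads but were left out of the tests, and 5 (Il3, Il9, Il17a, Il17c and Il36a) had no read in any library. Levels are given in CPM (read counts over TMM-scaled library sizes), and a gene is called higher or lower where its fold change was over 1.5 and its adjusted p under 0.05 by the quasi-likelihood test of edgeR, with Benjamini-Hochberg adjustment over all 17653 genes tested; SE is the standard error of a log2 fold change. The summed level of 4 adipocyte markers was 9726 to 15965 CPM over the 20 libraries. Skeletal muscle transcripts stood apart in Lean rats 1 and 2 (Acta1 at 721 and 1232 CPM), so each count was repeated without these rats. Food matched rat 5 held muscle transcripts too, with Acta1 at 20.7 CPM against at most 0.0552 CPM in the other Food matched rats. Lean rat 2 also held the epithelial markers Krt5 (12.5 CPM) and Epcam (19.6 CPM).

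Promoters are shown for 4 genes whose levels carry the comparisons below, namely an antagonist (Il1rn), receptors that were higher in Obese rats and lower with Cmpd 1 (Il1rl1 and Il7r) and a ligand that was higher in Obese rats (Il6). The sequences are from RefSeq (GRCr8), run 5′ to 3′ on the gene's strand and hold 250 bases before and 50 bases after an annotated start. Il1rn lies at chr3:27520072-27520371 (+), Il1rl1 at chr9:50203388-50203687 (+), Il7r at chr2:60204868-60205167 (-) and Il6 at chr4:5894526-5894825 (-). Capitals mark matches on either strand to the NF-kappaB consensus, to the PU.1 letters GAGGAA or to the TATA box letters TATAAA.
Il1rn: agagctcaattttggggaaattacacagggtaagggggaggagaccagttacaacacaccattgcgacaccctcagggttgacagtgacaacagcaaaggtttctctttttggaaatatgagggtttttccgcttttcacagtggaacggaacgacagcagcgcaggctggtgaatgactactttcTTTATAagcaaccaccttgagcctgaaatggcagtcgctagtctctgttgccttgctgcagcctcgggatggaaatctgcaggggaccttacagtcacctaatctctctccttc
Il1rl1: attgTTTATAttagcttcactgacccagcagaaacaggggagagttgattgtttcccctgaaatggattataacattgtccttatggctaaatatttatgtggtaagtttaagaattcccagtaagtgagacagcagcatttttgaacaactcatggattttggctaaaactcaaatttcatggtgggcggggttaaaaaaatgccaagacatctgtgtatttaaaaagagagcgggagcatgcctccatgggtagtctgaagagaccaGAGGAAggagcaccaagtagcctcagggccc
Il7r: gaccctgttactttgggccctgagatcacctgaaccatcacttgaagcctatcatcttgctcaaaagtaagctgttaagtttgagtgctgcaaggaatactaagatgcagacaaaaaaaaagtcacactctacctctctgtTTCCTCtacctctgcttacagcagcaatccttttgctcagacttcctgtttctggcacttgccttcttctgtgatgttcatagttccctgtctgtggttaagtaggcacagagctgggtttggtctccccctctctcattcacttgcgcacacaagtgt
Il6: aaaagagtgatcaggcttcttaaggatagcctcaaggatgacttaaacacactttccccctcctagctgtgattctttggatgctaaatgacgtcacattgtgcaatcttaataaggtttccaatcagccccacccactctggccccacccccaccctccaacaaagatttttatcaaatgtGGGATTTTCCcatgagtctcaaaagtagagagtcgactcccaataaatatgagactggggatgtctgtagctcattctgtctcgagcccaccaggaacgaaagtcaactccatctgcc
The NF-kappaB consensus was found in the Il6 window and in none of the other 3, against 7.51% of all 33469 rat promoters in the table and 18.6% of the 70 promoters of 63 interleukin genes that could be matched. The form of this consensus and the choice of the Il6 window were settled after matches had been seen. With any base allowed at its 5 inner positions these shares were 47.3% and 61.4%. GAGGAA was found in the windows of Il1rl1 and Il7r, against 27.6% of all promoters, and TATAAA in those of Il1rn and Il1rl1, against 14.2%. The STAT letters TTCNNNGAA (8.87% of all promoters and 11.4% of the interleukin promoters) and the AP-1 letters TGANTCA (7.33%, and 7 of the 70 interleukin promoters) were searched too. A match describes letters only and says nothing of binding, and a missing match says only that the letters are not in the window.

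The comparison of Obese with Lean rats asks how the genes differ with obesity and diabetes. Of the 58 tested interleukin genes, 14 rose and 6 fell in Obese rats, and 22.3% of all tested genes were called in this comparison (11.3% higher and 11% lower). The members that rose were Il1rn, Il36b, Il18bp, Il1rl1, Il1rl2, Il6, Il27, Il23r, Il7r, Il21r, Il15ra, Il10ra, Il17ra and Il4i1, and those that fell were Il33, Il10, Il5ra, Il13ra2, Il17d and Il20rb. The median log2 fold change was 0.30 over the tested members and −0.01 over all tested genes. Every Obese rat was above every Lean rat in 17.7% of all tested genes, and below in 15.9%. An unadjusted p under 0.05 was found for 36 members (53.9% of all tested genes), and 36 had an adjusted p under 0.05 with no fold threshold (48.2%). The number called was 18 without Lean rat 3 and at most 21 without any other rat. Without Lean rats 1 and 2 it was 19, with Il1rl1 and Il27 no longer called and Il1b called.

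The comparison of Cmpd 1 with Food matched rats holds food intake close and asks what the compound adds. Of the tested members, 11 fell and 2 rose with Cmpd 1, where 6.19% of all tested genes were called (4.65% lower and 1.54% higher). Il1rn, Il18, Il18bp, Il1rl1, Il1rl2, Il7r, Il21r, Il15ra, Il13ra2, Il23r and Il22ra2 fell, and Il20rb and Il4i1 rose. The median log2 fold change was −0.21 over the tested members and 0.01 over all tested genes. Among members, 27 had an unadjusted p under 0.05 (33.8% of all tested genes), and 21 had an adjusted p under 0.05 with no fold threshold (22.8%). Leaving out 1 rat at a time gave 9 to 12 called members. Every Cmpd 1 rat was below every Food matched rat in 7.86% of all tested genes, and above in 7.05%.

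No rats are shared between these comparisons, and 11 members were called in both, which is 11 of the 20 called for Obese versus Lean and 11 of the 13 called for Cmpd 1 versus Food matched (55% and 84.6%). Over all tested genes 868 were called in both, which is 22.1% of those called for Obese versus Lean and 79.5% of those called for Cmpd 1 versus Food matched, so the second share is close to the background and is not a result about the interleukin genes. Among the genes called in both, the direction was opposite in 9 of the 11 members and in 96.8% of all tested genes. In 8 of these, Il1rn, Il18bp, Il1rl1, Il1rl2, Il7r, Il21r, Il15ra and Il23r, the gene rose in Obese rats and fell with Cmpd 1. That is 72.7% of the 11 members, against 75% of all tested genes called in both comparisons. This share is close to the background and is not a result about the interleukin genes. Il20rb fell in Obese rats and rose with Cmpd 1, Il4i1 rose in both comparisons, and Il13ra2 fell in both. Neither Il20rb nor Il4i1 was called for Cmpd 1 versus Obese, where their values overlapped.

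**Figure D1:**
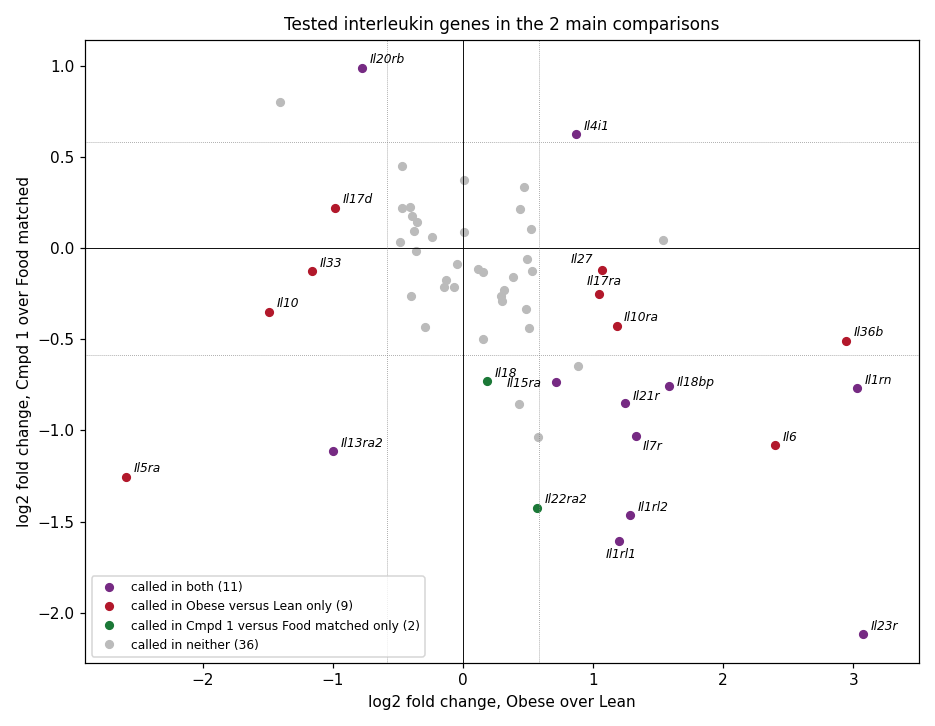
Each point is a tested interleukin gene, with the log2 fold change of Obese over Lean on the x axis and of Cmpd 1 over Food matched on the y axis; dotted lines mark 1.5-fold. The 11 genes called in both comparisons are purple, and 8 of them lie at the lower right, higher in Obese rats and lower with Cmpd 1.

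Il1rn encodes the IL-1 receptor antagonist, which occupies the IL-1 receptor without signalling (chromosome 3 of rn6, 1452644 to 1468614). Il1rn was at 76.8, 69.3, 67.3, 46.5 and 63.5 CPM in Cmpd 1 rats 1 to 5 and at 123, 145, 90.1, 101 and 92.2 CPM in Food matched rats. It was at 84.2, 71.6, 93.4, 107 and 99.2 CPM in Obese rats and at 5.25, 9.26, 14.3, 19.5 and 7.43 CPM in Lean rats. The Lean rats were all far below the 3 obese groups, and all Cmpd 1 rats were below all Food matched rats. The log2 fold change was 3.03 ± 0.26 (SE, edgeR adjusted p = 9.81e-09) for Obese versus Lean and −0.77 ± 0.24 (SE, edgeR adjusted p = 0.0241) for Cmpd 1 versus Food matched. The call with Cmpd 1 was lost without Food matched rat 1 (adjusted p = 0.0557 from edgeR), Food matched rat 2 (0.0721) or Cmpd 1 rat 4 (0.0736). Set against the Obese group, the log2 fold change with Cmpd 1 was −0.49 ± 0.24 (SE, edgeR adjusted p = 0.181).

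Il18bp encodes the IL-18 binding protein, a secreted protein that captures IL-18 (chromosome 1, 167091522 to 167093560). Il18bp was at 31.1, 29.1, 22.6, 22.1 and 23.4 CPM in Cmpd 1 rats 1 to 5 and at 50.3, 55.4, 35, 42.7 and 33.6 CPM in Food matched rats. It was at 27.9, 25.2, 38.1, 36.5 and 33.7 CPM in Obese rats and at 10.9, 9.47, 11, 12.7 and 9.89 CPM in Lean rats. The Lean rats formed the lowest group with no overlap, and the Cmpd 1 rats were below every Food matched rat but overlapped the Obese rats. Its log2 fold change was 1.58 ± 0.15 (SE, edgeR adjusted p = 2.51e-08) for Obese versus Lean and −0.76 ± 0.14 (SE, edgeR adjusted p = 0.000847) for Cmpd 1 versus Food matched. For Cmpd 1 versus Obese it was −0.33 (edgeR adjusted p = 0.131), which did not pass. Il18, the ligand it captures, had a log2 fold change of 0.19 ± 0.15 (SE, edgeR adjusted p = 0.311) for Obese versus Lean, which did not pass, and of −0.73 ± 0.15 (SE, edgeR adjusted p = 0.00145) for Cmpd 1 versus Food matched, a fall. Il18 overlaps Bco2 on the other strand, and whether counting used strand is not given in the sources used here, so reads of both may be mixed; Bco2 averaged 1.78 ± 0.0765 CPM in Cmpd 1, 2.43 ± 0.352 in Food matched, 2.58 ± 0.648 in Obese and 1.34 ± 0.202 in Lean rats (SD, n = 5 each).

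Il1b, the main secreted IL-1 agonist, was low beside its antagonist. Il1b was at 1.97, 3.25, 2.58, 2.17 and 2.93 CPM in Cmpd 1 rats 1 to 5 and at 2.12, 2.04, 2.1, 2.95 and 2.82 CPM in Food matched rats. It was at 4.21, 4.57, 2.95, 4.04 and 2.19 CPM in Obese rats and at 2.58, 2.87, 2.18, 2.53 and 2.29 CPM in Lean rats. The 4 groups overlapped, with Obese rats 1, 2 and 4 the highest. The log2 fold change was 0.53 ± 0.19 (SE, edgeR adjusted p = 0.0242) for Obese versus Lean, short of 1.5-fold, and −0.58 ± 0.19 (SE, edgeR adjusted p = 0.231) for Food matched versus Obese. It reached 1.5-fold, and so a call, without Obese rat 3 (log2 fold change 0.59) or without Obese rat 5 (0.66).

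Per base of transcript, Il1rn exceeded Il1b in all 20 rats. The ratio of their RPKM (CPM per kilobase of gene length, on the gene lengths of the table) was 14.6 to 26.7 in Cmpd 1, 22.4 to 48.4 in Food matched, 10.7 to 31.0 in Obese and 1.39 to 5.28 in Lean rats. The RPKM ratio of Il18bp to Il18 was 7.90 to 12.3 in Cmpd 1, 7.99 to 10.3 in Food matched, 6.90 to 11.2 in Obese and 2.63 to 4.28 in Lean rats. Both ratios separated the Lean rats from all others, and both overlapped between the 3 obese groups. Il18 and Il18bp were each called lower for Cmpd 1 versus Food matched. These ratios are descriptions and were not tested.

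**Figure D2:**
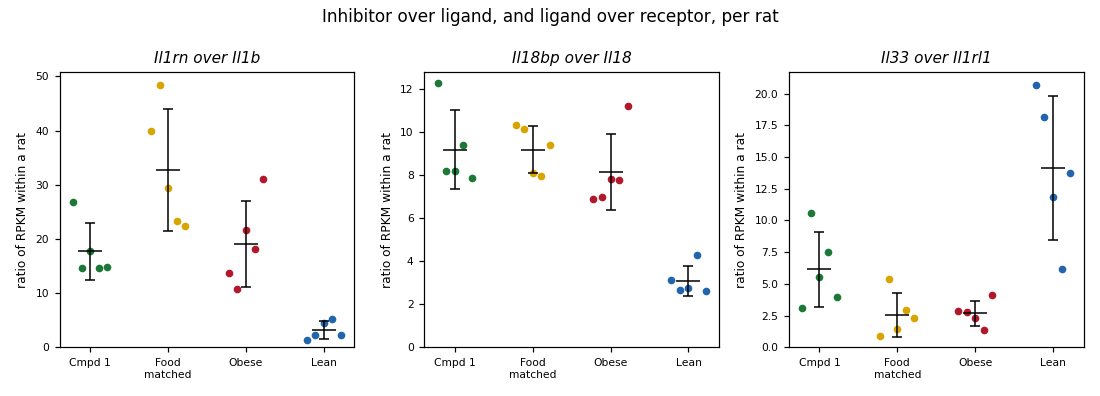
Ratios of RPKM within a rat (y axis, no unit) for Il1rn over Il1b, Il18bp over Il18 and Il33 over Il1rl1 in the 4 groups; points are rats, and bars are the mean ± SD of 5. The Lean rats lie lowest for both inhibitor ratios, at no more than 5.28 and 4.28, and hold the highest values for Il33 over Il1rl1, up to 20.7.

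Il36b encodes an IL-36 agonist and Il1rl2 its receptor. Il36b was at 1.47, 1.68, 1.5, 1.07 and 1.05 CPM in Cmpd 1 rats 1 to 5 and at 2.45, 2.5, 1.69, 1.39 and 1.63 CPM in Food matched rats. It was at 2.03, 1.47, 2.06, 2.31 and 1.31 CPM in Obese rats and at 0.0391, 0.0707, 0.258, 0.302 and 0.504 CPM in Lean rats. Every Lean rat was below every rat of the other groups, which overlapped. The log2 fold change of Il36b was 2.94 ± 0.40 (SE, edgeR adjusted p = 3.84e-06) for Obese versus Lean and −0.51 ± 0.35 (SE, edgeR adjusted p = 0.341) for Cmpd 1 versus Food matched, which did not pass. Il36b and Il1rn lie 81.0 kb apart on opposite strands in the deposited annotation, but the RefSeq span of Il36b in GRCr8 overlaps that of Il1rn, so Il36b reads are uncertain. Il1rl2 was at 0.303, 0.352, 0.708, 0.429 and 0.474 CPM in Cmpd 1 rats 1 to 5 and at 1.51, 1.45, 1.54, 1.04 and 0.704 CPM in Food matched rats. It was at 0.468, 0.513, 0.961, 1.57 and 0.940 CPM in Obese rats and at 0.431, 0.424, 0.314, 0.453 and 0.199 CPM in Lean rats. All Obese rats were above all Lean rats, though by little in rats 1 and 2, and Cmpd 1 rat 3 overlapped the Food matched rats. Il1rl2 had a log2 fold change of 1.28 ± 0.34 (SE, edgeR adjusted p = 0.00363) for Obese versus Lean and −1.47 ± 0.34 (SE, edgeR adjusted p = 0.00358) for Cmpd 1 versus Food matched.

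Il33 encodes an alarmin released from stromal and endothelial cells, and Il1rl1 encodes its receptor ST2, which exists in membrane and soluble forms that gene counts do not separate. Il33 was at 62.6, 105, 88.6, 87.3 and 80.6 CPM in Cmpd 1 rats 1 to 5 and at 88, 134, 69.6, 89.4 and 81.3 CPM in Food matched rats. It was at 83.8, 79.8, 75, 64.6 and 71.3 CPM in Obese rats and at 208, 174, 147, 157 and 152 CPM in Lean rats. The Lean rats were the highest, with no overlap, and the 3 obese groups overlapped. Il33 had a log2 fold change of −1.16 ± 0.15 (SE, edgeR adjusted p = 1.98e-06) for Obese versus Lean and of −0.13 ± 0.15 (SE, edgeR adjusted p = 0.613) for Cmpd 1 versus Food matched, which did not pass and was 0.048 without Food matched rat 2. Il1rl1 was at 29.1, 14.5, 23.1, 16.9 and 29.3 CPM in Cmpd 1 rats 1 to 5 and at 142, 36.5, 70.4, 44.6 and 51.5 CPM in Food matched rats. It was at 43, 41.7, 47.8, 70.8 and 25.1 CPM in Obese rats and at 14.5, 13.9, 18, 36.7 and 16.1 CPM in Lean rats. Food matched rat 1 was far above the rest, the Cmpd 1 rats were below all Food matched rats, and Lean rat 4 overlapped the Obese rats.

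For Il1rl1 (chromosome 9, 47134034 to 47182170) the log2 fold change was 1.20 ± 0.35 (SE, edgeR adjusted p = 0.00784) for Obese versus Lean and −1.61 ± 0.36 (SE, edgeR adjusted p = 0.00281) for Cmpd 1 versus Food matched. The rise in Obese rats was no longer called without Lean rats 1 and 2 (0.95, adjusted p = 0.0679 from edgeR), which leaves Lean rat 4 as 1 of 3. Against the Obese group the log2 fold change with Cmpd 1 was −1.01 ± 0.35 (SE, edgeR adjusted p = 0.0596), which did not pass, although it did with DESeq2 (adjusted p = 0.0394), with only these groups in the edgeR fit (0.0156) and without Obese rat 5 (0.0423). Ligand and receptor thus lay in opposite directions in Obese rats, and the RPKM ratio of Il33 to Il1rl1 was 3.12 to 10.6 in Cmpd 1, 0.897 to 5.35 in Food matched, 1.32 to 4.12 in Obese and 6.20 to 20.7 in Lean rats.

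Il1rl2 and Il1rl1 follow each other on chromosome 9 in a row of IL-1 receptor family genes that all lie on the same strand. In order these are Il1r2, a decoy receptor, Il1r1, the signalling IL-1 receptor, Il1rl2, Il1rl1, Il18r1 and Il18rap, the last pair being the IL-18 receptor subunits. The deposited annotation places 1 other gene between Il1rl2 and Il1rl1 and 2 between Il1r2 and Il1r1, by their start positions. Il1rl2 and Il1rl1 were the only genes of the row called in either comparison. Il1r1 passed the adjusted p in both but was under 1.5-fold, with log2 fold changes of 0.51 ± 0.09 (SE, edgeR adjusted p = 8.23e-05) for Obese versus Lean and −0.44 ± 0.09 (SE, edgeR adjusted p = 0.00155) for Cmpd 1 versus Food matched.

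**Figure D3:**
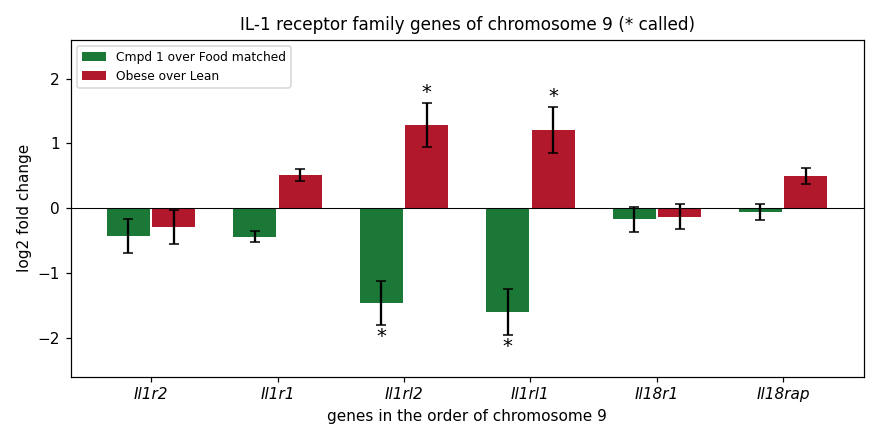
Log2 fold changes (y axis; bars, with standard errors) of the 6 IL-1 receptor family genes in their order on chromosome 9 (x axis), for Cmpd 1 over Food matched (green) and Obese over Lean (red); asterisks mark calls. Il1rl2 and Il1rl1 carry the calls, at 1.28 and 1.20 for Obese over Lean and −1.47 and −1.61 for Cmpd 1 over Food matched.

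The receptors of the common gamma chain family were counted apart from the IL-13 receptors Il13ra1 and Il13ra2, which do not use that chain, and all 8 were tested. For Obese versus Lean 3 rose (Il7r, Il21r and Il15ra) and 0 fell, where 11.3% of all tested genes rose and 11% fell. For Cmpd 1 versus Food matched those 3 fell, where 4.65% of all tested genes fell. Il7r encodes the IL-7 receptor alpha chain, which also serves the receptor for TSLP, and it stands on an unplaced scaffold in the deposited annotation. Il7r was at 2.78, 4.11, 3.06, 2.57 and 2.95 CPM in Cmpd 1 rats 1 to 5 and at 5.56, 7.66, 5.4, 7.45 and 5.65 CPM in Food matched rats. It was at 4.62, 5.56, 5.37, 6.59 and 6.02 CPM in Obese rats and at 2.11, 2.11, 2.29, 1.96 and 2.71 CPM in Lean rats. The Cmpd 1 rats were below all Food matched and all Obese rats, and the Lean rats were lowest apart from an overlap with Cmpd 1. Il7r had a log2 fold change of 1.33 ± 0.14 (SE, edgeR adjusted p = 1.92e-07) for Obese versus Lean, −1.03 ± 0.14 (SE, edgeR adjusted p = 9.66e-05) for Cmpd 1 versus Food matched and −0.86 ± 0.14 (SE, edgeR adjusted p = 0.00108) for Cmpd 1 versus Obese. Its ligand gene Il7 was called only for Cmpd 1 versus Lean, a rise, with a log2 fold change of 0.76 ± 0.16 (SE, edgeR adjusted p = 0.000684), with 4.63 ± 0.71 CPM in Cmpd 1 and 2.73 ± 0.556 CPM in Lean rats (SD, n = 5 each).

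Il21r encodes the IL-21 receptor, found on lymphocytes and myeloid cells. Il21r was at 2.15, 3.8, 2.25, 1.78 and 2.72 CPM in Cmpd 1 rats 1 to 5 and at 4.42, 3.52, 3.83, 6.4 and 4.85 CPM in Food matched rats. It was at 3.57, 4.09, 4.63, 4.15 and 3.32 CPM in Obese rats and at 1.14, 1.75, 2.31, 1.44 and 1.68 CPM in Lean rats. All Obese rats exceeded all Lean rats, and Cmpd 1 rat 2 alone reached into the Food matched range. Its log2 fold change was 1.24 ± 0.21 (SE, edgeR adjusted p = 4.89e-05) for Obese versus Lean and −0.85 ± 0.21 (SE, edgeR adjusted p = 0.00518) for Cmpd 1 versus Food matched. Il15ra encodes the chain that presents IL-15 to neighbouring cells. Il15ra was at 2.22, 2.5, 1.9, 1.5 and 1.85 CPM in Cmpd 1 rats 1 to 5 and at 3.63, 3.63, 3.46, 3.1 and 2.83 CPM in Food matched rats. It was at 2.67, 2.24, 2.13, 3.48 and 2.64 CPM in Obese rats and at 1.35, 2.18, 1.07, 1.58 and 1.82 CPM in Lean rats. The Cmpd 1 rats were all below the Food matched rats, and Obese and Lean rats overlapped. Il15ra had a log2 fold change of 0.72 ± 0.18 (SE, edgeR adjusted p = 0.00266) for Obese versus Lean and −0.74 ± 0.18 (SE, edgeR adjusted p = 0.00571) for Cmpd 1 versus Food matched. Il2rg, the common gamma chain itself, had a log2 fold change of 0.49 ± 0.10 (SE, edgeR adjusted p = 0.00053) for Obese versus Lean, under 1.5-fold.

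Il13ra2 encodes a decoy receptor for IL-13 (X chromosome, 118443823 to 118513061). Il13ra2 was at 0.257, 0.503, 0.312, 0.276 and 0.211 CPM in Cmpd 1 rats 1 to 5 and at 0.607, 0.867, 0.542, 0.779 and 0.593 CPM in Food matched rats. It was at 1.05, 0.770, 0.891, 1.01 and 0.896 CPM in Obese rats and at 2.31, 2.6, 1.26, 1.78 and 1.28 CPM in Lean rats. The groups stepped down in order, with every Lean rat above and every Cmpd 1 rat below all others, while Food matched and Obese rats overlapped. It fell in these 3 comparisons, with log2 fold changes of −1.0 ± 0.24 (SE, edgeR adjusted p = 0.0015) for Obese versus Lean, −1.11 ± 0.26 (SE, edgeR adjusted p = 0.00373) for Cmpd 1 versus Food matched and −1.56 ± 0.26 (SE, edgeR adjusted p = 0.00107) for Cmpd 1 versus Obese. Without Lean rats 1 and 2 the log2 fold change for Obese versus Lean was −0.64 (adjusted p = 0.035 from edgeR). Il20rb was lower in Obese rats but did not share that order. Its product is a subunit of the receptors for IL-19, IL-20 and IL-24. Il20rb was at 11.5, 10.5, 11.5, 15.3 and 11.4 CPM in Cmpd 1 rats 1 to 5 and at 4.64, 4.99, 6.1, 5.36 and 9.17 CPM in Food matched rats. It was at 11.2, 12.4, 9.88, 9.35 and 10.7 CPM in Obese rats and at 22.6, 14.4, 16.8, 18.3 and 19.7 CPM in Lean rats. The Food matched rats were lowest and overlapped no other group, the Cmpd 1 and Obese rats overlapped, and the Lean rats were highest apart from Cmpd 1 rat 4. Il20rb had a log2 fold change of −0.78 ± 0.15 (SE, edgeR adjusted p = 0.000307) for Obese versus Lean and 0.99 ± 0.16 (SE, edgeR adjusted p = 0.000269) for Cmpd 1 versus Food matched.

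**Figure D4:**
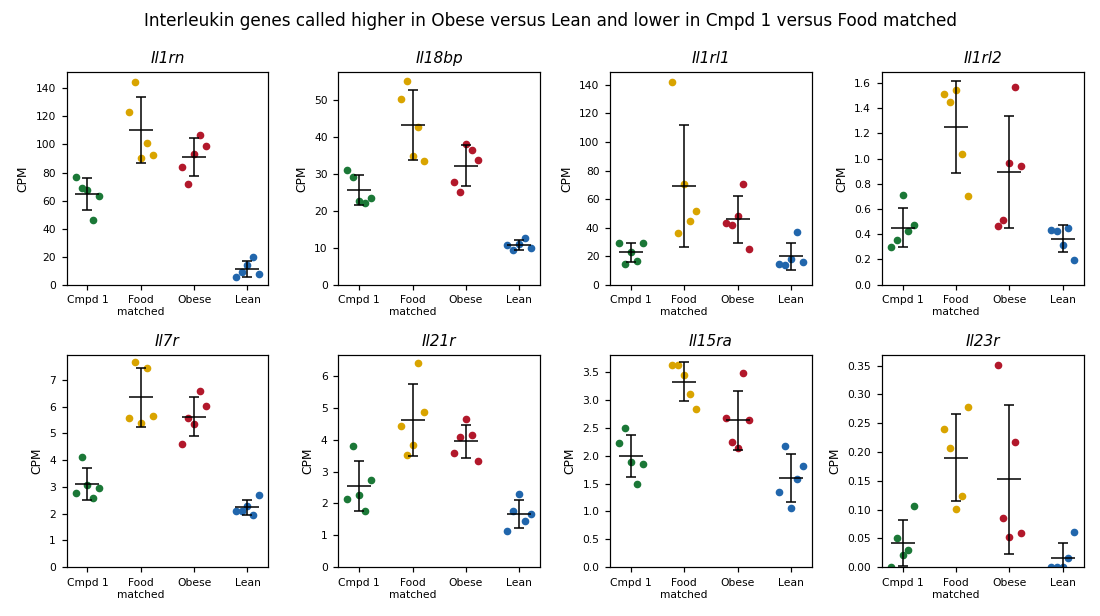
CPM (y axis, from 0) of the 8 interleukin genes called higher in Obese than in Lean rats and lower in Cmpd 1 than in Food matched rats, by group; points are rats, and bars are the mean ± SD of 5. In all 8 panels the Cmpd 1 mean is below the Food matched mean and the Lean mean is the lowest, as for Il7r with 3.09 CPM in Cmpd 1, 6.34 CPM in Food matched, 5.63 CPM in Obese and 2.24 CPM in Lean rats.

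Il23r encodes the IL-23 receptor of T cells and innate lymphocytes and was barely read, with 11 reads in the Cmpd 1, 59 in the Food matched, 48 in the Obese and 5 in the Lean group. Il23r was at 0, 0.0503, 0.0208, 0.0306 and 0.105 CPM in Cmpd 1 rats 1 to 5 and at 0.239, 0.207, 0.102, 0.123 and 0.278 CPM in Food matched rats. It was at 0.351, 0.0855, 0.0524, 0.217 and 0.0588 CPM in Obese rats and at 0, 0, 0, 0.0168 and 0.0611 CPM in Lean rats. Cmpd 1 rat 1 and Lean rats 1, 2 and 3 had no read, and the groups overlapped. The fitted log2 fold changes were 3.07 ± 0.85 (SE, edgeR adjusted p = 0.00503) for Obese versus Lean and −2.12 ± 0.76 (SE, edgeR adjusted p = 0.0485) for Cmpd 1 versus Food matched, and at this depth their size depends on the prior count of the fit. The value for Obese versus Lean was 4.62 without Lean rat 5, which held 4 of the 5 Lean reads, and 2.4 without Lean rats 1 and 2, and it stayed past the threshold over all alternatives run. The call with Cmpd 1 was lost without any 1 of Food matched rats 1, 2, 4 and 5 or Cmpd 1 rats 1, 2, 3 and 4 (adjusted p from 0.0541 to 0.100 in edgeR), and with no filter on low counts (0.0688). DESeq2 gave no adjusted p for Il23r in this comparison, so the call was lost there too.

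Il6, a cytokine of macrophages, stromal cells and adipose tissue, was low in all groups. Il6 was at 0.318, 0.787, 0.458, 0.643 and 0.334 CPM in Cmpd 1 rats 1 to 5 and at 1.27, 0.673, 1.47, 1.27 and 0.667 CPM in Food matched rats. It was at 2.41, 1.5, 0.857, 1.91 and 0.338 CPM in Obese rats and at 0.0587, 0.353, 0.406, 0.235 and 0.260 CPM in Lean rats. Obese rat 5 lay within the Lean range and the other Obese rats above it. Il6 rose, with a log2 fold change of 2.4 ± 0.47 (SE, edgeR adjusted p = 0.000267) for Obese versus Lean, and its log2 fold change for Cmpd 1 versus Food matched was −1.08 ± 0.45 (SE, edgeR adjusted p = 0.0916), which did not pass, although DESeq2 gave an adjusted p of 0.0493 and an edgeR fit of only these groups one of 0.0256. Of its receptor chains, Il6st, the shared signal transducer gp130, was the most abundant interleukin gene per base in the 3 obese groups.

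Per length, Il6st averaged 56.6 ± 5.68 RPKM in Cmpd 1, 54.3 ± 2.45 in Food matched, 55.3 ± 3.64 in Obese and 65.1 ± 4.27 in Lean rats (SD, n = 5 each). In Lean rats Il33 stood beside it at 68.6 ± 10.02 RPKM, a level not apart from that of Il6st beyond the spread, with Il11ra1, the IL-11 receptor, at 39.2 ± 2.5 RPKM. In Obese rats the next were Il1rn at 44.7 ± 6.74 and Il18bp at 34.6 ± 5.95 RPKM, and their ranges overlapped. In Food matched rats Il1rn reached 54.0 ± 11.4 RPKM, level with Il6st within the spread, and in Cmpd 1 rats it was at 31.7 ± 5.51 RPKM, overlapping Il33 and Il11ra1.

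Several receptors were raised in Obese rats without a call for Cmpd 1. Il17ra, the signalling chain shared by IL-17 receptors, rose, with a log2 fold change of 1.05 ± 0.07 (SE, edgeR adjusted p = 6.98e-10) for Obese versus Lean and had a log2 fold change of −0.25 ± 0.07 (SE, edgeR adjusted p = 0.0111) for Cmpd 1 versus Food matched. Il10ra, the IL-10 receptor chain of leukocytes, rose, with a log2 fold change of 1.18 ± 0.10 (SE, edgeR adjusted p = 6.47e-09) for Obese versus Lean and had a log2 fold change of −0.42 ± 0.10 (SE, edgeR adjusted p = 0.0032) for Cmpd 1 versus Food matched. Both passed the adjusted p with Cmpd 1 but not 1.5-fold. In both all Cmpd 1 rats were below all Food matched rats, as in 7.86% of all tested genes. Il17re, the receptor chain for IL-17C, lay the other way and under 1.5-fold, with log2 fold changes of −0.46 ± 0.08 (SE, edgeR adjusted p = 4.68e-05) for Obese versus Lean and 0.45 ± 0.08 (SE, edgeR adjusted p = 0.000471) for Cmpd 1 versus Food matched.

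Among ligands that fell in Obese rats, Il17d belongs to the IL-17 family. Il17d was at 4.11, 4.96, 3.42, 5.64 and 4.08 CPM in Cmpd 1 rats 1 to 5 and at 3.26, 4.62, 3.24, 3.56 and 4.32 CPM in Food matched rats. It was at 4.66, 4.19, 4.44, 3.41 and 3.76 CPM in Obese rats and at 9.41, 7.22, 6.98, 8.26 and 8.64 CPM in Lean rats. The Lean rats were all above the others, and the 3 obese groups overlapped. Il17d had a log2 fold change of −0.98 ± 0.14 (SE, edgeR adjusted p = 5.76e-06) for Obese versus Lean. Il10, an inhibitory cytokine, was rare, with 43 reads in the Cmpd 1, 65 in the Food matched, 67 in the Obese and 183 in the Lean group. Its log2 fold change was −1.49 ± 0.48 (SE, edgeR adjusted p = 0.014) for Obese versus Lean, a call lost without Lean rat 3 (adjusted p = 0.0561 from edgeR). Il5ra, the IL-5 receptor of eosinophils, had 3 reads in the Cmpd 1, 10 in the Food matched, 9 in the Obese and 58 in the Lean group and had a log2 fold change of −2.59 ± 0.80 (SE, edgeR adjusted p = 0.0106) for Obese versus Lean.

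**Figure D5:**
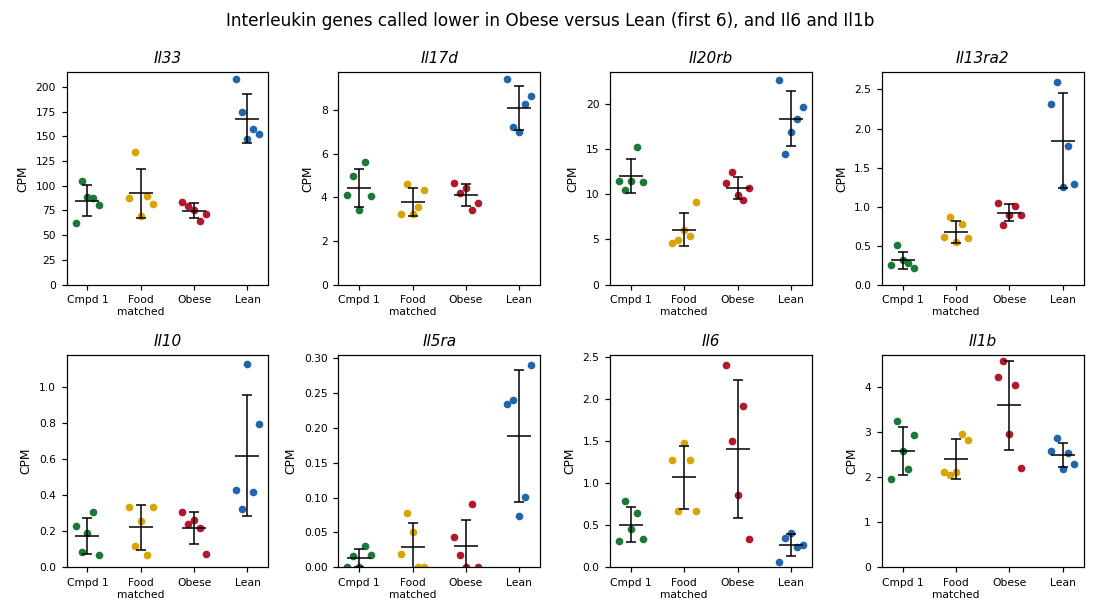
CPM (y axis, from 0) of the 6 interleukin genes called lower in Obese than in Lean rats, and of Il6 and Il1b, by group; points are rats, and bars are the mean ± SD of 5. For Il33 and Il17d the 3 obese groups lie together under the Lean rats, for Il13ra2 they step down to 0.312 CPM in Cmpd 1 rats, and for Il20rb the Food matched rats are lowest at 6.05 CPM.

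Il4i1 is an amino acid oxidase of myeloid cells named for its induction by IL-4. Il4i1 was at 2.54, 2.45, 2.27, 2.08 and 2.48 CPM in Cmpd 1 rats 1 to 5 and at 0.957, 1.54, 1.3, 1.44 and 2.44 CPM in Food matched rats. It was at 2.78, 1.81, 2.6, 1.97 and 2.0 CPM in Obese rats and at 0.783, 1.65, 1.09, 1.44 and 1.13 CPM in Lean rats. Every Cmpd 1 and Obese rat was above every Lean rat, and Food matched rat 5 overlapped both. It rose, with a log2 fold change of 0.87 ± 0.22 (SE, edgeR adjusted p = 0.00259) for Obese versus Lean and of 0.62 ± 0.22 (SE, edgeR adjusted p = 0.0429) for Cmpd 1 versus Food matched. The call with Cmpd 1 was near the threshold and was lost without any 1 rat other than Food matched rat 5 (adjusted p from 0.0564 to 0.117 in edgeR). In edgeR it was also lost with no filter on low counts (adjusted p = 0.0661) and with a replicate block (0.0536). Il22ra2, the soluble IL-22 binding protein, had a log2 fold change of −1.43 ± 0.48 (SE, edgeR adjusted p = 0.0358) for Cmpd 1 versus Food matched on 45 reads in the Cmpd 1 and 157 in the Food matched group. That call was lost without Food matched rat 1, 2 or 4 or Cmpd 1 rat 1, 3, 4 or 5 (adjusted p from 0.0516 to 0.0954 in edgeR). Il27 rose, with a log2 fold change of 1.07 ± 0.41 (SE, edgeR adjusted p = 0.0371) for Obese versus Lean on 70 reads in the Obese and 33 in the Lean group. It overlaps Apobr on the other strand by 157 bases, which was at 21.96 ± 2.28 CPM in Obese and 13.4 ± 1.46 CPM in Lean rats (SD, n = 5 each). The call of Il27 was lost without Lean rats 1 and 2 together (adjusted p = 0.0629 from edgeR) and without Obese rat 4 or 5 or Lean rat 1, 3 or 4 (adjusted p from 0.0656 to 0.117 in edgeR). It was also lost with DESeq2 (adjusted p = 0.0538). In edgeR it was lost with only these groups in the fit (adjusted p = 0.0671) and with a replicate block (0.0567).

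Against the Obese group, 4 members were lower with Cmpd 1 (Il13ra2, Il7r, Il21r and Il6) and 0 higher, where 3.53% of all tested genes were called (2.8% lower). Of the members, 22 had an unadjusted p under 0.05 (28.1% of all tested genes), and 14 an adjusted p under 0.05 with no fold threshold (14%). Il21r had a log2 fold change of −0.63 ± 0.21 (SE, edgeR adjusted p = 0.0458) and Il6 one of −1.47 ± 0.45 (SE, edgeR adjusted p = 0.0351) in this comparison. The count was 2 without Obese rat 4 or without Cmpd 1 rat 1, 4 or 5, where Il13ra2 and Il7r were left, and 6 without Obese rat 5. The calls of Il13ra2 and Il7r were kept without any 1 rat. That of Il21r was lost in 9 of the 10 fits that leave out 1 rat (adjusted p from 0.0509 to 0.129 in edgeR), all but the one without Cmpd 1 rat 2, and with library size alone as the scaling (0.0547). That of Il6 was lost in 7 of the 10, without Obese rat 1, 2 or 4 or Cmpd 1 rat 1, 3, 4 or 5 (adjusted p from 0.0511 to 0.0971 in edgeR), and with limma-voom (0.121). Food matched versus Obese rats gave 0 called members by edgeR, as 0% of all tested genes were called, and the lowest adjusted p of a member was 0.0647; 5 members (10.7% of all tested genes) had an unadjusted p under 0.05. limma-voom and DESeq2 each called 1, Il20rb, as lower in Food matched rats, and edgeR called it without Food matched rat 5. Both comparisons share the Obese rats. Of all tested genes, 5.36% had every Cmpd 1 rat below every Obese rat, and 1.01% had every Food matched rat below every Obese rat.

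Set against Lean rats, Cmpd 1 rats had 14 called members (8 higher and 6 lower), where 16.6% of all tested genes were called (7.47% higher and 9.11% lower). With no fold threshold 23 members passed (39% of all tested genes), and 28 had an unadjusted p under 0.05 (46.7%). Every Cmpd 1 rat was above every Lean rat in 13.4% of all tested genes, and below in 11.2%. The higher ones were Il1rn with a log2 fold change of 2.54 ± 0.26 (SE, edgeR adjusted p = 2.61e-07), Il36b, Il18bp, Il4i1, Il10ra, Il17ra, Il7 and Il21r, and the lower ones were Il5ra, Il13ra2, Il10, Il33, Il17d and Il20rb. Il21r was not called without Lean rat 1 (adjusted p = 0.0657 from edgeR) or 4 (0.0525) or Cmpd 1 rat 2 (0.105), and Il20rb was under 1.5-fold without Lean rat 1 (log2 fold change −0.53) or Cmpd 1 rat 2 (−0.57). Without Lean rats 1 and 2 the count was 13, with Il21r no longer called (adjusted p = 0.114 from edgeR). Il1rl1, Il7r, Il15ra, Il1rl2, Il23r, Il27 and Il6, which were called for Obese versus Lean, were not called here. A missing call does not place these genes at the Lean level. For each of them the Cmpd 1 mean was above the Lean mean, as for Il7r at 3.09 against 2.24 CPM.

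The ligands of helper T cells were at or near 0. Over all 20 libraries together Il2 had 20 reads, Il4 19, Il5 7, Il13 1, Il21 5, Il22 1 and Il17f 15, and a 0 in a library allows up to 3 reads there by counting error alone. At this depth none of these genes passed the filter on low counts, so differences between the groups were not tested.

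Genes that work with the interleukins were counted from lists. Over all tested genes, 11.3% rose and 11% fell for Obese versus Lean. For Cmpd 1 versus Food matched 1.54% rose and 4.65% fell. Of 14 shared receptor subunits and related cytokines (13 tested), 5 rose and 2 fell for Obese versus Lean, and 2 rose and 3 fell for Cmpd 1 versus Food matched. Those called in both were Ebi3, the IL-27 and IL-35 subunit (log2 fold changes 1.62 for Obese versus Lean and −1.52 for Cmpd 1 versus Food matched), Csf2ra, the GM-CSF receptor (1.28 and −0.66), Lif, an IL-6 family cytokine (−1.43 and 1.25), and Cntfr, a receptor of the same family (−1.27 and 0.71). Crlf2, the TSLP receptor chain that pairs with Il7r, rose for Obese versus Lean (1.23). Of 13 genes for processing and adaptors of IL-1 and IL-18, Nlrp3 (0.78) and Pycard (0.73), parts of the inflammasome, rose for Obese versus Lean and 0 were called for Cmpd 1 versus Food matched. Of 15 JAK, STAT and SOCS genes, 3 rose and 2 fell for Obese versus Lean, and 1 rose for Cmpd 1 versus Food matched. That gene, Cish, a feedback inhibitor induced by STAT5, had log2 fold changes of −2.92 for Obese versus Lean and 1.86 for Cmpd 1 versus Food matched.

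Several markers of other cell types differed between the same groups. Their counts stand beside 22.3% of all tested genes called for Obese versus Lean and 6.19% for Cmpd 1 versus Food matched. Ptprc, the pan-leukocyte CD45 gene, was at 120 to 162 CPM in Cmpd 1, 191 to 269 in Food matched, 184 to 235 in Obese and 52.0 to 76.8 in Lean rats. The summed level of 7 macrophage markers was 2344 to 3643 CPM in Cmpd 1, 4400 to 7167 in Food matched, 3744 to 5132 in Obese and 932 to 1498 in Lean rats, with none of the 7 at 0. In it 5 of 7 genes rose for Obese versus Lean and 5 of 7 fell for Cmpd 1 versus Food matched. Adgre1 and Csf1r were not called in either comparison. Gpnmb was the largest part of the sum in the obese groups. It was at 1264 to 2372 CPM in Cmpd 1, 2857 to 4785 in Food matched, 2319 to 3267 in Obese and 174 to 605 in Lean rats. The sum of 7 T cell markers was 255 to 356 CPM in Cmpd 1, 393 to 526 in Food matched, 369 to 479 in Obese and 153 to 185 in Lean rats. Cd4, which rat macrophages also express, made up most of this sum, and Cd3e, Cd3d and Cd3g were not called for Cmpd 1 versus Food matched. The sum of 5 mast cell markers was 50.1 to 83.2 CPM in Cmpd 1, 37.3 to 70.5 in Food matched, 53.7 to 77.0 in Obese and 107 to 141 in Lean rats. Of these genes 3 fell for Obese versus Lean and 0 were called for Cmpd 1 versus Food matched.

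Other markers were lower in Obese than in Lean rats, as were Il33, Il17d, Il20rb and Il10. Of 5 neutrophil markers, 2 fell (Mpo and Cxcr2) and 1 rose (Csf3r) for Obese versus Lean, and Mpo was at 109.6 to 143 CPM in Cmpd 1, 80.9 to 125 in Food matched, 109 to 147 in Obese and 467 to 559 in Lean rats. The neutrophil marker S100a8 was at only 0.288 to 1.72 CPM over the 20 libraries. For Cmpd 1 versus Food matched 1 of the 5 neutrophil markers rose and 0 fell. Of 4 fibroblast markers, 2 fell (Dpp4 and Pi16) and 1 rose (Col1a1), and Dpp4 was at 4.6 to 20.5 CPM in Cmpd 1, 4.8 to 20.2 in Food matched, 6.43 to 24.6 in Obese and 33.6 to 71.8 in Lean rats. Ccl21, a chemokine of lymph node stroma and lymphatic vessels, fell too and was at 0.0306 to 4.98 CPM in Cmpd 1, 0.0137 to 19.8 in Food matched, 0.190 to 1.2 in Obese and 11.5 to 53.6 in Lean rats. Mpo, Dpp4 and Ccl21 were not called for Cmpd 1 versus Food matched. In that comparison 1 of 4 dendritic cell markers fell, and 1 of 3 tested NK and cytotoxic markers rose. Of the adipocyte markers, Adipoq and Cidec fell and Lep rose for Obese versus Lean, and 0 of 4 were called for Cmpd 1 versus Food matched. Adipoq, the adiponectin gene, was at 4144 to 5169 CPM in Cmpd 1, 2761 to 3787 in Food matched, 3476 to 4445 in Obese and 6312 to 7043 in Lean rats. Lep, the leptin gene, was at 3214 to 3889.6 CPM in Cmpd 1, 4245 to 5748 in Food matched, 4590.1 to 6044 in Obese and 2585 to 3916 in Lean rats. The part of these cells in the interleukin differences was not tested.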

How the data were processed

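The authors extracted iWAT RNA, made stranded TruSeq mRNA libraries and used featureCounts for unique alignments. Sources differ on the alignment: the methods give rn6 and STAR v2.4.0h, and the processing notes give STAR 2.5.2, Subread 1.5.1 and the human build GRCh38. The table that the authors deposited holds unnormalized counts for 32545 genes, with rn6 positions and gene lengths, and no column of another sample. Whether counting used strand is not given in the sources used here. CPM and RPKM were computed from these counts.

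Genes with 0 reads in 10 or more of 20 libraries were left out, and 17653 were fitted in edgeR 4.0.16 under R 4.3.3 as 1 quasi-likelihood model of 4 groups with TMM scaling (16 residual degrees of freedom). A call needs a fold over 1.5 and an adjusted p under 0.05. The fit was tested on simulated data. Alternatives were DESeq2 1.42.0, limma-voom 3.58.1, other scalings and filters, only the compared groups, a replicate block, no fold threshold, and leaving out Lean rats 1 and 2 or each rat in turn. Replicates are separate rats. Genes named are members called in any comparison and a list of ligands and receptors, with values in every rat for those called in both main comparisons, the largest changes at a mean of 1 CPM or more, and Il1b, Il6 and Il33. Members and lists were chosen with earlier results of these data known.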

Additional observations from a re-analysis of the deposited data

Results flagged for a closer look

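Among the 64 group values tested (16 genes in 4 groups of 5 rats), 3 held a rat far from the rest, where chance alone would give about 3.2. Il1rl1 was at 36.7 CPM in Lean rat 4, against 13.9 to 18.0 CPM in the other Lean rats. Il23r was at 0.0611 CPM in Lean rat 5, against 0 to 0.0168 CPM in the other Lean rats, which is a matter of a few reads. Il20rb was at 15.3 CPM in Cmpd 1 rat 4, against 10.5 to 11.5 CPM in the other Cmpd 1 rats. The calls of Il1rl1 and Il20rb for Cmpd 1 versus Food matched rats were kept without any 1 rat.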

How the results depend on the processing

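The number of interleukin genes called was within 1.5 times the value given under most alternatives. With no fold threshold it was 36 for Obese versus Lean, 21 for Cmpd 1 versus Food matched, 14 for Cmpd 1 versus Obese and 23 for Cmpd 1 versus Lean. DESeq2 and limma-voom gave 1 for Food matched versus Obese. With the replicate number as a block the counts were 19, 12, 2, 0 and 15 for Obese versus Lean, Cmpd 1 versus Food matched, Cmpd 1 versus Obese, Food matched versus Obese and Cmpd 1 versus Lean; rats with the same number did not deviate together (correlations −0.10 to 0.15), so they share only a number. Leaving out each rat in turn gave 18 to 21, 9 to 12, 2 to 6, 0 to 1 and 13 to 16 in that order. Over the named genes and their alternatives, 1219 values kept direction and side of the threshold, 70 were no longer past it, 8 passed where the value given had not, and 1 turned its direction, that of Il33 for Cmpd 1 versus Food matched (−0.22 to 0.048 when each rat was left out, the highest without Food matched rat 2; the cause was not tested). Il5ra was absent from the fit with the stricter filter on low counts. Il23r had 5 to 59 reads per group. Il10, Il22ra2, Il27, Il5ra, Il36b, Il6 and Il13ra2 had fewer than 100 reads in some groups. This depth limits what can be said of these genes.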
